A study of Mus musculus with 4 samples.

Results

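The genes described here are 9 genes of early red cell development: the transcription factor genes Klf1, Gata1, Zfpm1 and Nfe2, the receptor gene Epor, the carbonic anhydrase genes Car1 and Car2, the membrane protein gene Ermap and the haem synthesis gene Alas2. They were given as a list of names, and each was read at every probe set that the platform annotation assigns to that gene alone, which gave 10 probe sets for 9 genes out of the 34958 probe sets and 18194 genes with 1 symbol. Of the members, 8 of 9 had 1 probe set, and Zfpm1 had 2, of which the one with the higher mean over all arrays was used. The study measured expression on 4 Affymetrix arrays of sorted bone marrow cells from C57BL/6 mice 8 weeks old. Of these, 2 arrays are labelled Alox15-/- for loss of the arachidonate 15-lipoxygenase gene and 2 are labelled WT; no treatment or other allele is named in the labels. The cells were sorted by flow cytometry as negative for lineage markers and positive for c-Kit and Sca-1, a gate that holds haematopoietic stem cells together with multipotent progenitors and is meant to leave out committed red cell precursors. The labels call the replicates biological without naming animals or pools, so any p below reflects only how far these 4 samples scatter, part of which may be technical.

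GATA1 is the zinc finger factor that opens the red cell, platelet and mast cell programmes. It works with its cofactor FOG1, the product of Zfpm1, and in red cell precursors with KLF1, a Krüppel-like factor that binds CACC elements of globin and other red cell genes. NF-E2, whose large subunit is encoded by Nfe2, acts in platelet formation and at the globin loci. These factors act upstream of the erythropoietin receptor (Epor), which carries survival signals, of the carbonic anhydrases, which interconvert carbon dioxide and bicarbonate, and of ALAS2, the erythroid enzyme that begins haem synthesis. In stem and progenitor cells several of these genes are transcribed before any cell is committed to the red cell fate.

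Because GATA and CACC elements are the sites such factors bind, the promoters of 4 members are shown: Klf1, the member with the largest difference between the groups, Gata1, and Epor and Alas2, which are textbook targets of these factors. The sequences are from RefSeq in build GRCm38.p6, run 5′ to 3′ on the gene's strand from 250 bases before to 50 bases after the annotated start (300 bases), and are in lower case. Capitals mark GATA letters (AGATAA, or the same with T as the first letter, G as the last, or both) and CACC letters (CCNCNCCC), each searched on both strands.
Klf1, chr8:84901732-84902031, plus strand: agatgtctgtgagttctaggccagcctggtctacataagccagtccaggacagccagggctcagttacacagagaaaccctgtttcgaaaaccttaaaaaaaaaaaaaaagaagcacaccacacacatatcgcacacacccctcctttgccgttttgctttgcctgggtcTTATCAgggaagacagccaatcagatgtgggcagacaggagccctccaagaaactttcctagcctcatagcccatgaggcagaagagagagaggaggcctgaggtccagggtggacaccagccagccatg
Gata1, chrX:7967861-7968160, minus strand: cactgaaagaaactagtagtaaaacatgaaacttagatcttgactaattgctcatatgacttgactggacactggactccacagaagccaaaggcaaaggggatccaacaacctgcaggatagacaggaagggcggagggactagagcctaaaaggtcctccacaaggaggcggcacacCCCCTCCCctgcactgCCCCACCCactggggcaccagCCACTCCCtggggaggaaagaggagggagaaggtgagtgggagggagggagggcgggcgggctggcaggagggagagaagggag
Epor, chr9:21963527-21963826, minus strand: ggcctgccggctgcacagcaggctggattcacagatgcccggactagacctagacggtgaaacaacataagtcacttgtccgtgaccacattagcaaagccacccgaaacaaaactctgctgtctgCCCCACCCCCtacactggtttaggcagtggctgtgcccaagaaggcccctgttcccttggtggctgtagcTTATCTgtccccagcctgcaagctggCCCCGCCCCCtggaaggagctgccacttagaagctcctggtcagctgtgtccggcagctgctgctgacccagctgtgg
Alas2, chrX:150547167-150547466, plus strand: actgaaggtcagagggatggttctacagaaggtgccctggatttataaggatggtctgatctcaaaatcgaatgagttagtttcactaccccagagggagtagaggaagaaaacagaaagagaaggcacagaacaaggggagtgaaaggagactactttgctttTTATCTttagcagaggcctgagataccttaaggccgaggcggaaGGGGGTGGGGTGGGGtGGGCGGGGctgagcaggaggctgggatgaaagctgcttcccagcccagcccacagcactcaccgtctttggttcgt
In the Klf1 window 1 GATA match began 80 bases before the start and there was no CACC match. In the Gata1 window 3 CACC matches began 71, 55 and 34 bases before the start and there was no GATA match. The Epor window held both, with 1 GATA match 54 bases before the start and 4 CACC matches that overlap in pairs. The Alas2 window held 1 GATA match 86 bases before the start and 4 CACC matches, some of which overlap. Of the members, 6 of 9 had a promoter in the table, Nfe2, Car1 and Car2 being the others; Klf1, Epor, Ermap and Alas2 held a GATA match (4 of 6) and Gata1, Epor, Zfpm1 and Alas2 a CACC match (4 of 6). Of all 32851 promoters of that length in the table, 29.8% held a GATA match and 49.5% a CACC match. A match describes letters in the window and is not a measured site. The pattern called CACC here also fits letters that do not hold CACC, such as CCCCGCCC at Epor and Zfpm1.

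All values below are log2 units of the authors' RMA table, in which each probe set has 1 value per array, and a difference is the arrays labelled Alox15-/- minus WT. The check of the labels went against them: the only Alox15 probe set read 10.68 and 10.75 on the arrays labelled Alox15-/- and 4.63 and 4.35 on the WT arrays. The WT values lay below the highest of 27 bacterial control probe sets, and against that control's WT mean of 4.97 the level on the arrays labelled Alox15-/- was at least 53.5-fold higher (limma adjusted p = 0.00133). No source used here places the probe set relative to the deleted part, and the directions below are those of the arrays as labelled. The control's level was 4.95 to 5.17 over the 4 arrays. Pearson's r over all probe sets was 0.990 between the arrays labelled Alox15-/-, 0.988 between the WT arrays and 0.986 to 0.988 across groups. Of the gate's own genes, Kit read 10.34 and 10.23 on the arrays labelled Alox15-/- and 10.63 and 10.48 on the WT arrays, a difference of -0.27 (limma adjusted p = 0.695) with -0.20 at its other probe set, and Ly6a, the gene of Sca-1, was not analysed here. Kit with Cd34, Flt3 and Ptprc, genes of surface proteins listed with the gate, averaged 11.09 and 11.04 on the arrays labelled Alox15-/- and 11.15 and 11.11 on the WT arrays.

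Klf1 was the member that stood apart, at a higher level on the arrays labelled Alox15-/-, while the other members had smaller differences of both signs. Of the 9 members, 3 had a positive difference (Klf1, Gata1 and Zfpm1) and 6 a negative one, with a median of -0.15 and a range from -0.28 to 0.87. The median over all genes tested was 0.02. None of the 9 passed limma's adjusted threshold of 0.05 (0 of 9; 0.0055% of all genes passed), and 1 of 9 (11.1%), Klf1, had an unadjusted limma p under 0.05, on the higher side, against 7.77% of all genes (4.2% higher and 3.57% lower). The groups did not overlap for 3 of 9 members (33.3%), Klf1 on the higher side and Nfe2 and Car2 on the lower, against 38.5% of all genes (21.4% higher and 17.1% lower). These shares are close to the background and are no result about the members as a list. Each of the 9 members read above the highest bacterial control on every array, and none lies on chromosome 11, which carries Alox15. In sorted bulk cells, fewer cells of a type and less RNA per cell cannot be told apart.

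**Figure D1:**
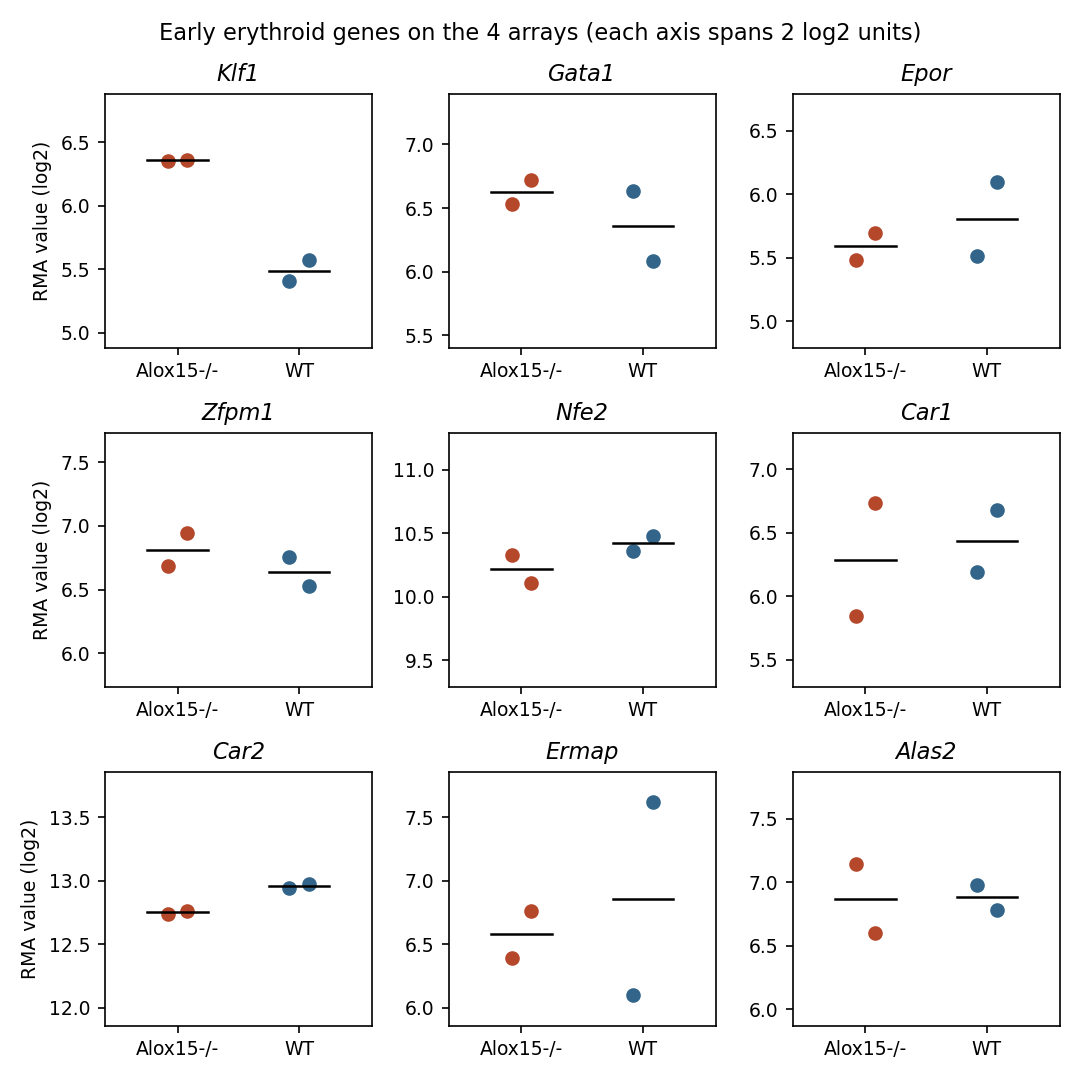
RMA values (log2, vertical axes, each spanning 2 units) of the 9 members on each array, with arrays labelled Alox15-/- on the left, WT on the right, points for arrays and a line for the mean of 2. Klf1 reads 6.35 and 6.36 on the arrays labelled Alox15-/- and 5.41 and 5.57 on the WT arrays, whereas most other members overlap between the groups.

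Klf1 read 6.35 and 6.36 on the arrays labelled Alox15-/-, against 5.41 and 5.57 on the WT arrays, at probe set 1418600_at. Both arrays labelled Alox15-/- were thus higher than both WT arrays, and the gap between the WT arrays, 0.17, was small beside the gap between the groups. The difference was 0.87 ± 0.14 (SE, n = 2 each), which is 1.82-fold, with a 95% interval of 0.53 to 1.21. The unadjusted limma p was 0.00105 and the adjusted p over all genes was 0.373, so the difference did not pass. Among the deposited probe sets, a ranking that also depends on how brightly each set of probes reads, it outranked 49.0% and 49.1% of the table's probe sets on the arrays labelled Alox15-/- and 35.1% and 37.7% on the WT arrays. On the WT arrays it read only 0.41 and 0.625 above the highest bacterial control of the same array. On the arrays labelled Alox15-/- that margin was 1.185 and 1.2825. With 1 array left out, Klf1 differed by 0.78 to 0.95. Klf1 had been seen to differ in these arrays before the list was made, so its p is no independent evidence.

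Gata1, the gene of the factor that switches on Klf1 in red cell precursors, read 6.53 and 6.72 on the arrays labelled Alox15-/- and 6.64 and 6.08 on the WT arrays. WT replicate 1 lay between the 2 arrays labelled Alox15-/-, so the groups overlapped. The difference was 0.27 ± 0.22 (SE), with a 95% interval of -0.28 to 0.82 and limma adjusted p = 0.800. It rested on WT replicate 2, since without that array it was -0.01, and without WT replicate 1 it was 0.55 (limma adjusted p = 0.556).

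Zfpm1, which encodes the GATA1 cofactor FOG1, read 6.69 and 6.94 on the arrays labelled Alox15-/- and 6.75 and 6.53 on the WT arrays at the probe set used, 1451046_at. Its other probe set, 1423603_at, read 6.47 and 6.65 on the arrays labelled Alox15-/- and 6.66 and 6.71 on the WT arrays. The 2 probe sets disagreed in direction, with differences of 0.17 and -0.13, and their mean differed by 0.02. Limma's adjusted p for the probe set used was 0.823, with a 95% interval of -0.24 to 0.58, and its difference was 0.05 without Alox15-/- replicate 2 and 0.30 without Alox15-/- replicate 1.

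Nfe2, the gene of the large NF-E2 subunit, read 10.33 and 10.11 on the arrays labelled Alox15-/- and 10.36 and 10.48 on the WT arrays. The groups did not overlap, but only 0.03 separated the nearer arrays. The difference was -0.20 ± 0.15 (SE), with a 95% interval of -0.57 to 0.17 and limma adjusted p = 0.774, and it was -0.31 without Alox15-/- replicate 1 and -0.09 without Alox15-/- replicate 2. Nfe2 is also transcribed in stem cells and megakaryocytes, and its probe set outranked 92.9% and 91.6% of the table on the arrays labelled Alox15-/- and 93.1% and 93.7% on the WT arrays.

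Epor, the receptor gene, read 5.49 and 5.70 on the arrays labelled Alox15-/- and 5.52 and 6.10 on the WT arrays. The groups overlapped, and WT replicate 2 was the only high array. The difference was -0.22 ± 0.23 (SE; 95% interval -0.79 to 0.36, limma adjusted p = 0.850), and it was 0.08 without WT replicate 2 and -0.51 without WT replicate 1. Its probe set read 0.32 to 1.15 above the highest bacterial control of its own array.

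The 2 carbonic anhydrase genes differed in how closely their replicates lay. Car1, an early marker of committed red cell progenitors, read 5.84 and 6.73 on the arrays labelled Alox15-/- and 6.19 and 6.68 on the WT arrays. Both WT values lay between those of the arrays labelled Alox15-/-, whose gap of 0.89 was 5.98 times the difference of -0.15 ± 0.33 (SE; 95% interval -0.99 to 0.69, limma adjusted p = 0.935). Car2 read 12.74 and 12.77 on the arrays labelled Alox15-/- and 12.95 and 12.98 on the WT arrays, so that the groups did not overlap and the replicates lay within 0.03 of each other. Its difference was -0.21 ± 0.13 (SE; 95% interval -0.52 to 0.11), with limma adjusted p = 0.734. Its probe set outranked 99.4% to 99.6% of the table on the 4 arrays. With a prior variance that depends on the level, its unadjusted limma p was 0.000424 and its adjusted p 0.151. Car2 is known outside the red cell series, and bone marrow stem cells transcribe it.

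Car1 and Car2 lie on chromosome 3 in a run of carbonic anhydrase genes, in the order Car13, Car1, Car3 and Car2. The other genes of that run had differences of -0.05 for Car13, with 0.42 and 1.13 at its other probe sets, and 0.26 for Car3, with 0.14 to 0.29 at its other probe sets; they were named for their position. Of the 14 other carbonic anhydrase genes, all of which were measured, 0 passed the adjusted threshold by limma and 1 (7.1%, against 7.77% of all genes) had an unadjusted p under 0.05, Car10 at -0.35, which read under the highest bacterial control on every array and at 0.32 at its other probe set. Their median was -0.01, and from -0.04 to 0.04 without 1 array.

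Ermap, which encodes an erythroid membrane protein of the butyrophilin-like family, read 6.40 and 6.76 on the arrays labelled Alox15-/- and 6.10 and 7.62 on the WT arrays. The WT arrays enclosed both others and were 1.52 apart, the widest gap between replicates among the members. The difference was -0.28 ± 0.49 (SE; 95% interval -1.53 to 0.97, limma adjusted p = 0.917), with -1.04 without WT replicate 1 and 0.48 without WT replicate 2. Alas2 read 7.14 and 6.60 on the arrays labelled Alox15-/- and 6.98 and 6.78 on the WT arrays. Those values interleave, and the difference was -0.01 ± 0.22 (SE; 95% interval -0.56 to 0.54, limma adjusted p = 0.994).

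**Figure D2:**
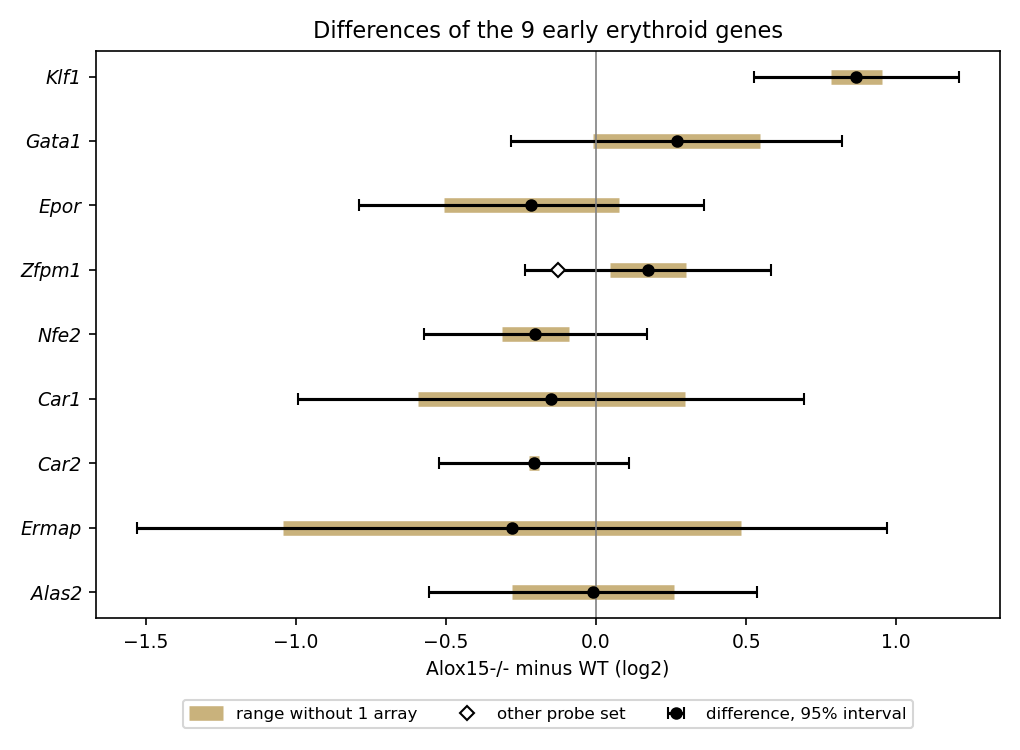
Difference of each member, Alox15-/- minus WT (log2, horizontal axis), with points for the probe set used, black bars for limma's 95% intervals, tan bands for the range when 1 array is left out and a diamond for the other Zfpm1 probe set. Klf1 at 0.87 is the only member whose interval leaves out 0, and the bands of Gata1, Epor, Car1, Ermap and Alas2 cross 0.

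For 7 of 9 members the wider gap between replicates exceeded the difference between the groups, Klf1 and Car2 being the other two. The members did not move together from array to array. WT replicate 2 held the highest value of 4 members (Epor, Nfe2, Car2 and Ermap), Alox15-/- replicate 2 of 4 (Klf1, Gata1, Zfpm1 and Car1), Alox15-/- replicate 1 of 1 (Alas2) and WT replicate 1 of 0. The mean of the 9 members relative to their mean over all arrays was -0.05 and 0.08 on the arrays labelled Alox15-/- and -0.12 and 0.09 on the WT arrays. The mean thus differed more within each labelled group than between the groups.

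Likeness of pattern was measured as the Euclidean distance between log2 values over 4 arrays, each gene centred on its own mean. The genes nearest to Klf1 were AA467197 at a distance of 0.07, Gm17619 at 0.07 and Cdkn2aip at 0.11. Cdkn2aip, which encodes a protein that binds the ARF tumour suppressor, read 7.96 and 7.84 on the arrays labelled Alox15-/- and 6.89 and 7.05 on the WT arrays. Nearest to Gata1 were Usp13 at 0.02, Phf6 at 0.02 and E130018N17Rik at 0.03, the last under the highest bacterial control on every array. Over 4 arrays such distances describe the values and say nothing of a link between the genes.

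Around the members, 4 further lists of the red cell pathway were read, with 0 genes past limma's adjusted threshold in each. Among 24 measured partner factors of GATA1 and KLF1, of 25 listed, 1 had an unadjusted limma p under 0.05 on the higher side and 1 on the lower, and the median was -0.10, with 8 positive and 16 negative differences. E2f2, a cell cycle factor that KLF1 activates in red cell precursors, read 9.33 and 9.12 on the arrays labelled Alox15-/- and 8.75 and 8.69 on the WT arrays, a difference of 0.50 (limma adjusted p = 0.580). Bach1, a haem-sensing repressor of globin genes, differed by -0.35, with 0.41 at its other probe set. Gata2, which precedes GATA1 in progenitors, differed by 0.13, Tal1 by 0.14, Lmo2 by -0.11 and Gfi1b by 0.02, none near the threshold; these 4 core factors were named after their values were seen.

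Haem synthesis genes, 13 of 14 measured, had a median of 0.07, with 1 at an unadjusted limma p under 0.05 on the higher side and 0 on the lower. That gene was Fech, whose enzyme inserts iron into the haem ring: it read 9.12 and 9.20 on the arrays labelled Alox15-/- and 8.75 and 8.53 on the WT arrays, a difference of 0.52 (limma adjusted p = 0.580). Its other probe sets gave 0.58, -0.21 and -0.27. Of 17 measured genes of erythropoietin receptor signalling, out of 18, 14 had negative differences and the median was -0.11, with 0 higher and 1 lower at an unadjusted limma p under 0.05. The one was Cish, a feedback inhibitor that STAT5 induces, which read 6.96 and 7.03 on the arrays labelled Alox15-/- and 7.32 and 7.60 on the WT arrays and differed by -0.47 (limma adjusted p = 0.619). Further early red cell genes, 20 of 22 measured, had a median of 0.02, with 2 higher and 0 lower at an unadjusted limma p under 0.05, Mt1 at 0.77 with -0.21 at its other probe set, and Ctse at 0.37. The shares at that p were 8.3%, 7.7%, 5.9% and 10.0% in these 4 lists, against 7.77% of all genes. The haem synthesis median was -0.03 without Alox15-/- replicate 2 and 0.13 without WT replicate 1, and that of the further early red cell genes was -0.04 without WT replicate 1, so neither direction held. With 1 array left out, 0 to 2 partner factors, 0 to 2 haem synthesis genes, 0 to 1 genes of receptor signalling and 1 to 4 further early red cell genes were at that p.

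**Figure D3:**
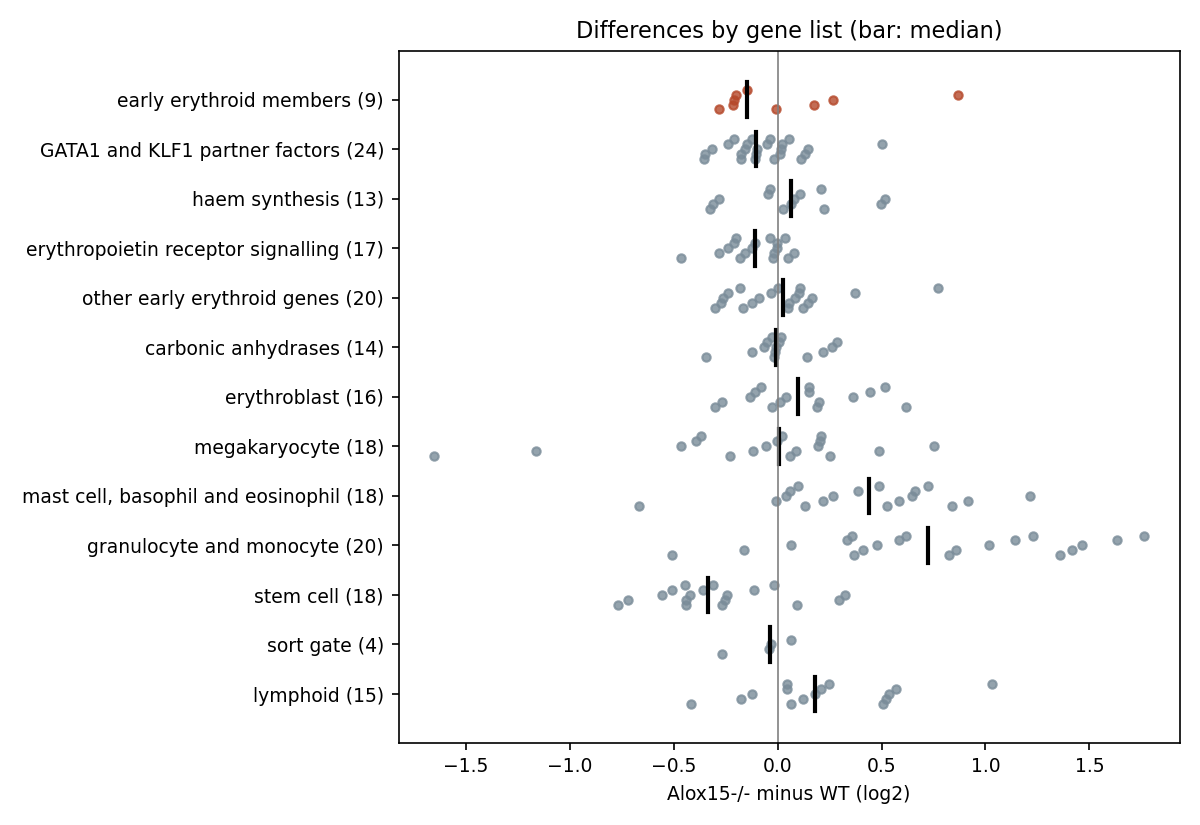
Differences, Alox15-/- minus WT (log2, horizontal axis), of every measured gene in the member list (top row), in 5 pathway lists and in 7 lists of cell type markers, with the number of genes in brackets and a bar at each median. The red cell lists centre between -0.15 and 0.10, the granulocyte and monocyte markers at 0.72 and the stem cell genes at -0.33.

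Markers of later red cells were read to see whether erythroblasts had entered the gate. Of 24 erythroblast markers 16 were measured, and 3 of the others lay only on probe sets shared with other genes. Of the 16 measured, 8 read above the highest bacterial control on every array. Another 5, Hba-a1, Hba-x, Hbb-y, Rhag and Tspo2, read under that control on every array. Rhag and Hba-a2 were named after their values were seen. Rhag, a membrane protein of the Rh complex, read 2.13 and 2.39 on the arrays labelled Alox15-/- and 2.04 and 2.08 on the WT arrays. Hba-a2, an adult alpha globin gene near-identical to Hba-a1, read 12.05 and 12.09 on the arrays labelled Alox15-/- and 11.94 and 12.12 on the WT arrays. The Hba-a1 probe set read only 4.72 and 4.78 on the arrays labelled Alox15-/- and 4.85 and 4.35 on the WT arrays. The 2 probe sets thus did not read alike, and which of them reports alpha globin transcripts was not tested. The list's summed log2 level was 105.0 and 108.0 on the arrays labelled Alox15-/- and 104.7 and 104.8 on the WT arrays, its median difference was 0.10, and 2 genes, Fech, which is also in the haem list, and Hbb-bh1 (0.44, and 0.25 without WT replicate 2), were higher at an unadjusted limma p under 0.05, with 0 lower (12.5%, against 7.77% of all genes). Leaving out WT replicate 2, or Alox15-/- replicate 2, took that count to 0. Without 1 array that median ran from 0.02 to 0.12. Hbb-bh1 differed by 0.09 and 0.31 at its other probe sets. At the probe set used it read 4.90 on WT replicate 2, under the highest bacterial control of that array (4.95).

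Megakaryocyte markers, which share GATA1, FOG1 and NF-E2 with the red cell series, had a median of 0.01 over 18 measured of 20, with 2 higher and 3 lower at an unadjusted limma p under 0.05 (27.8%, against 7.77% of all genes). Without WT replicate 2 or without Alox15-/- replicate 2 the count on the lower side was 1. The median ran from -0.13 without WT replicate 1 to 0.08 without Alox15-/- replicate 2. Selp, the platelet adhesion receptor P-selectin, differed by 0.75, with 1.44 and 1.72 at its other probe sets. Ppbp, a platelet chemokine gene, differed by -1.65 (-0.95 without WT replicate 2), and Tubb1, a platelet tubulin gene, by -1.16 (-0.74 without Alox15-/- replicate 2). Ppbp was above the highest bacterial control on WT replicate 2 alone and Tubb1 on no array. Gp1bb, Gp5, Gp6 and Thbs1 also read below it on all arrays, and the list's summed log2 level was 114.3 and 112.4 on the arrays labelled Alox15-/- and 114.0 and 117.1 on the WT arrays.

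Over the 12 pathway and marker lists, the summed log2 level was higher on both arrays labelled Alox15-/- than on both WT arrays for 6 lists (haem synthesis, further early red cell genes, erythroblast, mast cell, granulocyte and monocyte, and lymphoid), lower for 4 (partner factors, erythropoietin receptor signalling, stem cell genes and the list of Kit, Cd34, Flt3 and Ptprc) and overlapping for 2. Of single genes, 38.5% separated in one direction or the other, but that share is no background for sums over many genes. No background for such sums was computed, so these counts are no result about the lists. Some margins were narrow. Further early red cell genes summed to 151.54 and 151.38 on the arrays labelled Alox15-/- and 150.95 and 151.35 on the WT arrays. Haem synthesis genes summed to 106.75 and 107.73 against 106.59 and 106.44. Granulocyte and monocyte markers, 20 of 22 measured, had a median of 0.72 with 11 higher and 1 lower at an unadjusted limma p under 0.05 (60.0%, against 7.77% of all genes), and 0 past the adjusted threshold. Their summed log2 level was 171.7 and 170.9 on the arrays labelled Alox15-/- and 152.4 and 159.7 on the WT arrays. F13a1 differed by 1.76, S100a8 by 1.64 (0.80 without WT replicate 1 and 2.47 without WT replicate 2) and S100a9 by 1.46 (0.91 without WT replicate 1). Itgam, named for its direction, was the gene on the lower side, at -0.51. Without Alox15-/- replicate 1 the count on the higher side was 5 and without WT replicate 1 it was 6. Mast cell, basophil and eosinophil markers, cells in which GATA1 also acts, had a median of 0.44 over 18 measured of 19, with 5 higher and 1 lower at that p (33.3%, against 7.77% of all genes), and 3 higher without WT replicate 2. Their summed log2 level was 111.7 and 110.4 on the arrays labelled Alox15-/- and 105.9 and 101.9 on the WT arrays. Leaving out WT replicate 2 gave a median of 0.20, and leaving out Alox15-/- replicate 1 a median of 0.27. Cpa3, a mast cell protease gene, differed by 0.84 (0.54 without WT replicate 2), Prg2 by 1.22 (0.67 without Alox15-/- replicate 1) and Fcer1a by 0.92 (0.48 without WT replicate 2). Csf2rb2, named for its direction, was the gene on the lower side, at -0.67, and read above the highest bacterial control on every array. Fcer1a read under the highest bacterial control on every array, and Prg2 on 3 of 4. Ccr3, Epx, Il5ra, Mcpt4, Prg3 and Tpsab1 also lay below it on every array.

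Stem cell genes, 18 of 20 measured, had a median of -0.33, with 0 higher and 5 lower at an unadjusted limma p under 0.05 (27.8%, against 7.77% of all genes). The lower side counted 4 when Alox15-/- replicate 1 was left out, and 3 when WT replicate 1, WT replicate 2 or Alox15-/- replicate 2 was. Hlf, a stem cell transcription factor, differed by -0.77, Fhl1 by -0.56, with 0.07 at its other probe set, and Meis1 by -0.51 (-0.33 without Alox15-/- replicate 1). Hlf and Meis1 lie on chromosome 11, which carries Alox15, and a part of that linkage in their differences was not tested. The summed log2 level of the list was 149.3 and 145.5 on the arrays labelled Alox15-/- and 152.9 and 152.2 on the WT arrays, and the median was -0.19 without Alox15-/- replicate 2. The 3′ and 5′ control probe sets of Gapdh, a measure of RNA quality, lay apart by 2.14 and 2.17 on the arrays labelled Alox15-/- and 2.37 and 2.39 on the WT arrays, whereas those of Actb overlapped between the groups, at -0.13 and -0.28 on the arrays labelled Alox15-/- and -0.23 and -0.19 on the WT arrays. The part of these other cells, of stem cell genes and of RNA quality in the Klf1 difference was not tested.

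**Figure D4:**
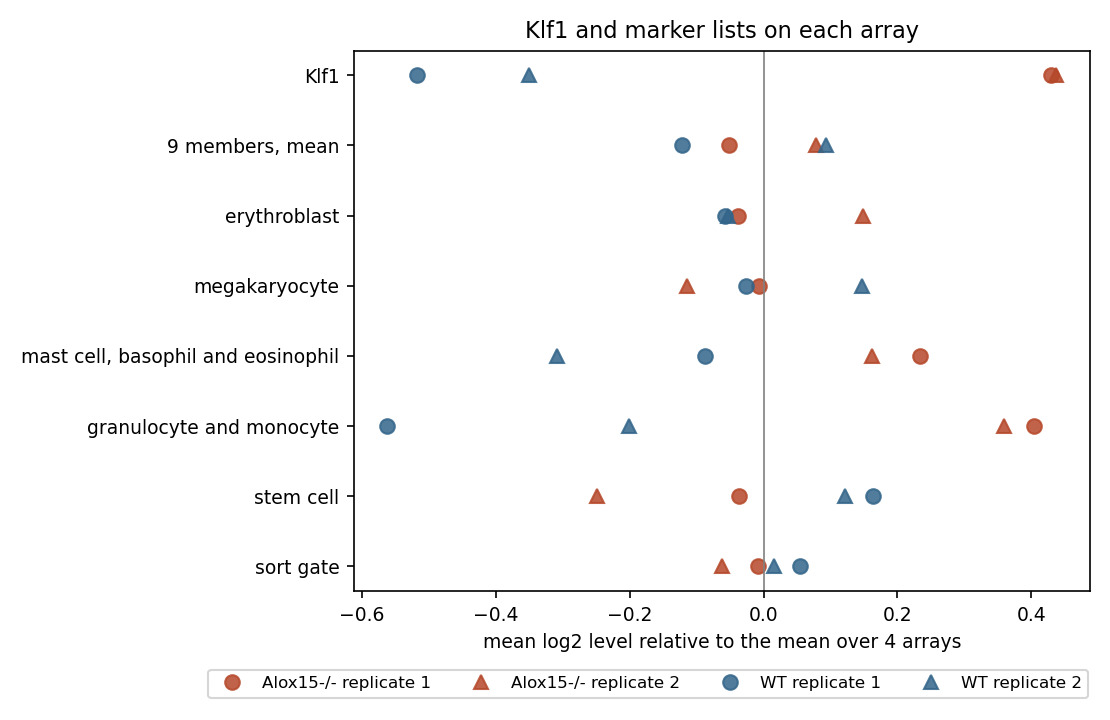
Level of Klf1, of the 9 members and of 6 marker lists on each array (mean log2 value relative to the mean over all 4 arrays, horizontal axis), with arrays labelled Alox15-/- in red, WT in blue, circles for replicate 1 and triangles for replicate 2. Klf1 lies at 0.43 and 0.44 on the arrays labelled Alox15-/- and at -0.52 and -0.35 on the WT arrays, the granulocyte and monocyte markers lie at 0.40 and 0.36 and at -0.56 and -0.20, the erythroblast markers lie apart narrowly (-0.04 and 0.15 against -0.06 and -0.05), and the megakaryocyte markers and the mean of the 9 members overlap.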

How the data were processed

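Per the submitters' processing notes, the authors used Affymetrix Expression Console 1.1 with RMA, so that the deposited log2 values are corrected for background, quantile-normalized between arrays and given once per probe set. Per the labels' protocols, a kit for sense-strand targets was used, whereas probe sets named in this way read antisense targets; how the arrays were labelled was not settled here. The number of arrays limits the precision. Of 45101 probe sets, 34958 had 1 gene symbol in the platform annotation, 932 had several and 9211 had none. Names were checked against RefSeq (34754 matched). Each gene was read at its probe set with the highest mean over the 4 arrays, with no filter on dim genes, which gave 18194 genes.

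The comparison was Alox15-/- minus WT, tested in R 4.3.3 by limma 3.58.1 without a block (eBayes after lmFit, both tails), and p-values were adjusted over all genes by Benjamini-Hochberg at a threshold of 0.05. An exact permutation test of 2 against 2 arrays cannot go below p = 0.333 and was not used. The members and lists were chosen with earlier results of these data known. Named genes were the members, Alox15, up to 3 genes per list with the largest absolute difference at an unadjusted p under 0.05 (or the 1 largest), and the 3 genes most like Klf1 and Gata1; the others named are said to be so where they appear. Bacterial controls, whose transcripts are not from mouse, gave the background. The code was tested on simulated data. Alternatives covered normalization, filters, variance moderation, array weights, probe sets, a replicate block and leaving out each array. Figures were drawn with matplotlib 3.10.9.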

Additional observations from a re-analysis of the deposited data

How the results depend on the processing

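No member passed limma's adjusted threshold of 0.05 under any alternative that was run, nor at 0.10. Klf1 stayed positive in each setting that held it, from 0.78 to 0.95, with limma adjusted p from 0.251 to 0.952. The count of members at an unadjusted limma p under 0.05 was 0 without the lowest 50 percent of genes, which left Nfe2 and Car2 alone, 2 with a mean-dependent prior variance and 2 without variance moderation (Klf1 and Car2), and 1 to 3 without 1 array. The genes past the threshold numbered 22 with the mean-dependent prior and 0 without any 1 array, fits in which a lone array is assumed to vary like the other group. The median of the members ran from -0.22 to 0.062 without 1 array. Without 1 array Gata1 ran from -0.0087 to 0.55, Epor from -0.51 to 0.078, Car1 from -0.59 to 0.30, Ermap from -1.04 to 0.48 and Alas2 from -0.28 to 0.26, all changing sign, and the cause was not tested. The labels name no pairing of the arrays. Deviations of the replicate 1 arrays from their group means had Pearson's r = -0.02 across genes. That shows no shared shift of arrays with the same number, but 1 such value cannot exclude a pairing. A replicate block left Klf1 at 0.87 with limma adjusted p = 0.409, 1 gene past the threshold and 0 members. With 2 arrays in each group, differences of the size most members showed could not be told from the spread between replicates.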

Other observations

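Lymphoid genes, which the members do not include, were also read: 15 of 16 were measured, with a median difference of 0.18, 3 higher and 1 lower at an unadjusted limma p under 0.05 (26.7%, against 7.77% of all genes), and 0 past the adjusted threshold. Igll1, a surrogate light chain gene of early B cells, differed by 0.57, with 0.06 at its other probe set, Rag1, a recombinase gene, by 0.52 (0.31 without WT replicate 1) and the cytotoxic granule gene Nkg7 by 0.51. On the lower side the gene was Ebf1 at -0.42, with -0.36 to 0.46 at its other probe sets, named for its direction. The T cell receptor genes Cd3e and Cd3g read under the highest bacterial control on every array. The median of the list was 0.08 without WT replicate 1, and the count on the higher side was 1 without Alox15-/- replicate 1.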
